A study of Mus musculus with 3 samples.

Results

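Mitochondrial steroidogenesis was followed through 9 listed genes, of 24225 in the table, in granulosa cells of the mouse ovary around ovulation. The genes were chosen by name: Star, Cyp11a1, Fdx1, Fdxr, Por, Hsd3b1, Tspo, Cyp11b1 and Srd5a1, and all 9 had a row. Granulosa cells are the somatic cells that surround and nourish the oocyte in its follicle. They came from wild-type C57BL/6 females of postnatal day 21 to 28, all primed with 4 IU of eCG, which drives follicle growth. A library each stands for ovaries taken before (0 h), 4 h after and 12 h after 5 IU of hCG, a hormone that acts on the luteinizing hormone receptor. The labels name 3 mice per time, and no source used here says whether their RNA was pooled. With 1 library per time no test was possible, so every difference below is one between 2 libraries and has no replicate check.

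Progesterone synthesis starts when cholesterol crosses to the inner mitochondrial membrane, where the side-chain cleavage enzyme turns it into pregnenolone with electrons handed on by a reductase and a ferredoxin. A 3-beta-hydroxysteroid dehydrogenase then makes progesterone. After the ovulatory hormone surge granulosa cells become luteal cells, which are known as the main source of ovarian progesterone.

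Levels are the authors' FPKM (fragments per kilobase of transcript, scaled to sequencing depth), summed over the isoforms of a gene. The range after a level is its deposited bounds, which describe the estimate within a library and not the spread between mice. A log2 fold compares FPKM + 1, which understates differences of low genes. A gene is called higher or lower when the fold reaches 2 and either library has 1 FPKM or more.

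The libraries held about 13400000, 11900000 and 11600000 fragments in time order, estimated from how low FPKM values are spaced. Summed FPKM were 501561, 621365 and 472904. With the libraries rescaled to the mean of these sums the median log2 fold of all genes moved by -0.28 for 4 h over 0 h and by 0.36 for 12 h over 4 h. All 9 granulosa markers were at 1 FPKM or more in each library, and their sum was 9895, 8787 and 5351 FPKM in time order. The inhibin subunits Inha (6986, 7163 and 3742 FPKM) and Inhba (699, 784 and 208) had the highest means over the 3 libraries. Against 7.03% of all genes, 4 of the 9 markers were lower by 2-fold or more at 4 h over 0 h. These were the FSH receptor Fshr (133, 15.5 and 32.1 FPKM in time order), the estrogen-synthesis genes Cyp19a1 (198, 30.0 and 105) and Hsd17b1 (1065, 151 and 445), and the transcription factor Foxl2 (149, 44.3 and 102). Markers of other cell types were detected too, and those named for each type have the highest means over the 3 libraries. Theca markers, from cells that also make steroids, summed to 172, 198 and 145 FPKM, with Cyp17a1 at 93.6, 114 and 59.0 FPKM and Acta2 at 59.8, 59.1 and 75.4. The 9 oocyte markers, Gdf9 and Oosp1 among them, summed to 231, 182 and 323 FPKM. Leukocyte markers summed to 77.0, 136 and 142 FPKM, with 7, 8 and 8 of 9 at 1 FPKM or more, Lyz2 and C1qa among them. The 5 endothelial markers, Cdh5 and Emcn among them, summed to 13.4, 33.2 and 13.4 FPKM. The 6 surface epithelium markers, Krt18 and Msln among them, summed to 53.6, 133 and 77.3 FPKM, and 5 measured erythroid markers, Hbb-b1 and Hba-a1 among them, to 1739, 1091 and 1110. None of these lists had a marker at 0. The 4 luteal markers, the receptors Lhcgr and Prlr among them, summed to 128, 172 and 116 FPKM. They did not move alike. Lhcgr (90.1, 113 and 69.4 FPKM) made up most of the sum, and Prlr was at 27.3, 32.9 and 20.9. Akr1c18, also a luteal marker here, was at 5.41, 16.2 and 19.2 FPKM. In such bulk RNA, fewer cells of a type and less RNA per cell cannot be told apart, and the part of other cell types in the results below was not tested.

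The cholesterol carrier Star, the cleavage enzyme Cyp11a1, its ferredoxin Fdx1 and the reductase Por were highest at 4 h, while the dehydrogenase Hsd3b1 was highest before hCG. By the calling rule 5 of the 9 genes (Star, Cyp11a1, Fdx1, Por and Cyp11b1) were higher in the 4 h library than in the 0 h library, against a background of 10.2% of 13240 genes. Lower in the 4 h library were 2 (Hsd3b1 and Srd5a1), against 7.03%. With libraries rescaled to the mean sum the counts were again 5 and 2, against 7.60% and 13.1% of all genes. The median log2 fold of the 9 genes was 1.62, against -0.01 over all genes at the same floor. At 12 h against 4 h, 1 gene was higher (Srd5a1) and 3 were lower (Star, Fdx1 and Por), against backgrounds of 4.83% and 7.88%, with a median of -0.26 against 0.01. At 12 h against 0 h, 3 were higher (Star, Fdx1 and Cyp11b1) and 1 was lower (Hsd3b1), against 3.16% and 2.55%, with a median of 0.51 against -0.02. The comparisons share libraries, so their counts are not independent. Together the 9 genes held 1.14%, 1.55% and 0.825% of all protein-coding FPKM at 0, 4 and 12 h.

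**Figure D1:**
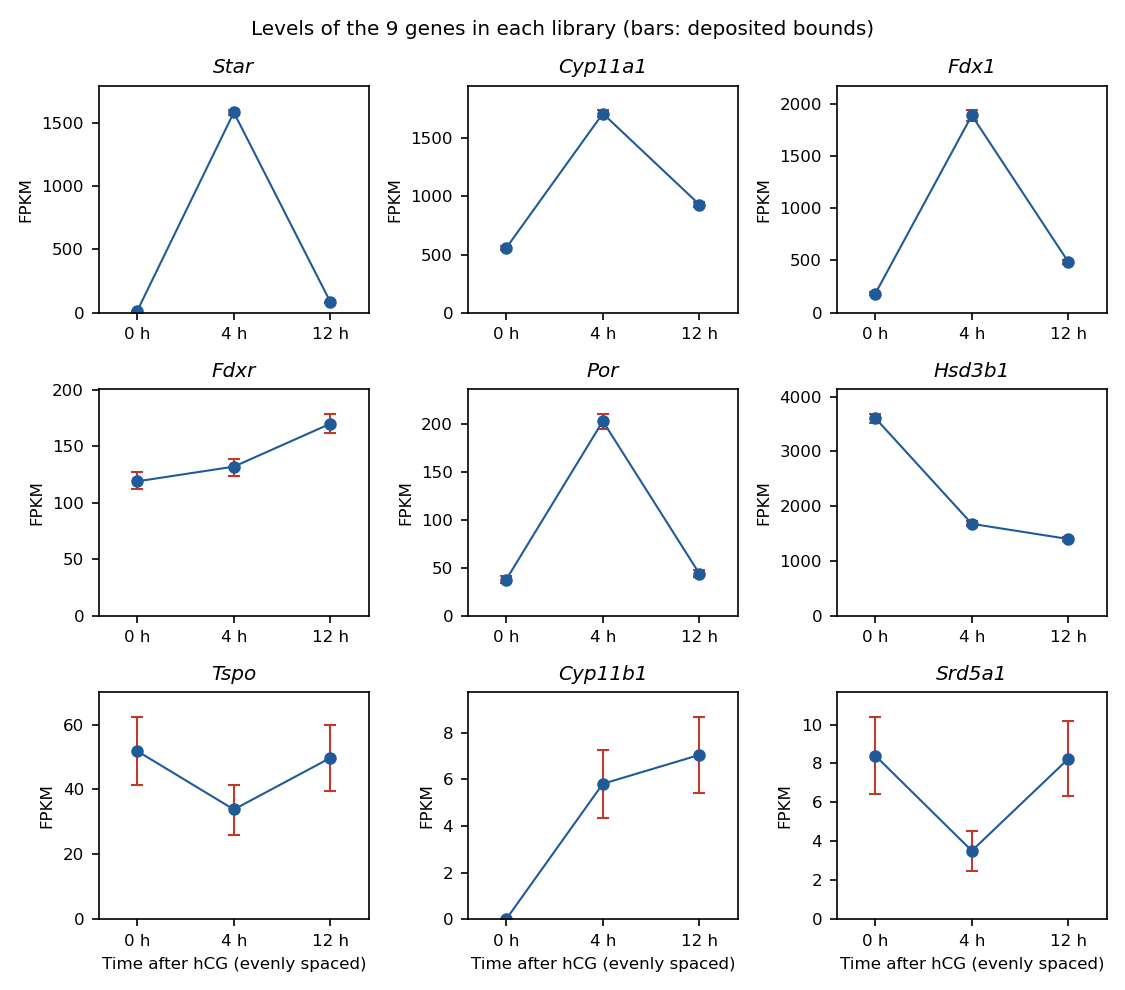
FPKM of each of the 9 genes (vertical axes from 0, each with its own range) in the 0, 4 and 12 h libraries, spaced evenly. Points are levels of 1 library and bars are the deposited bounds; Star, Fdx1, Por and Cyp11a1 peak at 4 h, Hsd3b1 is highest at 0 h, and Tspo and Srd5a1 are lowest at 4 h.

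Star, the protein that carries cholesterol to the inner mitochondrial membrane and sets the acute rate of steroid output, differed most at 4 h over 0 h of the 8 genes above 0 in every library. It was at 14.3 FPKM (12.2 to 16.5) at 0 h, 1583 (1566 to 1600) at 4 h and 83.8 (79.9 to 87.7) at 12 h. The 3 ranges lay far apart, with 4 h highest and 0 h lowest. The fold was 103 for 4 h over 0 h (log2 fold 6.69, with 6.48 to 6.93 from the bounds). Among protein-coding genes ordered by FPKM, Star stood at rank 5799 at 0 h, 18 at 4 h and 831 at 12 h. It kept 5.30% of the 4 h level at 12 h, yet lay above 0 h by a log2 fold of 2.47 (2.21 to 2.75). Star lies on chromosome 8 at 25808474 to 25815982 of GRCm38 and had 1 isoform in the table. None of its 50-base stretches occurred in a transcript of another gene.

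Tspo, the cholesterol-binding translocator protein of the outer mitochondrial membrane (chromosome 15, 83563573 to 83574203), did not follow Star. It was at 51.8 FPKM (41.3 to 62.4) at 0 h, 33.8 (26.0 to 41.5) at 4 h and 49.7 (39.4 to 59.9) at 12 h. The ranges of 0 h and 12 h overlapped, and that of 4 h overlapped both narrowly. No comparison was called, and the log2 fold of 4 h over 0 h was -0.60, with -1.23 to 0.01 from the bounds. Star was at 0.277 times the FPKM of Tspo at 0 h, 46.9 times at 4 h and 1.69 times at 12 h. Tspo shares 53 of its 1051 exonic bases with Mcat on the other strand, and Mcat was between 10.2 and 17.9 FPKM, lowest at 4 h and highest at 0 h. Tspo is known as a macrophage gene as well, and the leukocyte markers given above were lowest in sum at 0 h. The part of leukocytes in the Tspo levels was not tested.

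A wider list around this step had 23 measured genes (START-domain proteins, outer membrane partners of Star and Tspo, fusion and protease genes of mitochondria), of which 21 reached 1 FPKM. Of these 1 was higher at 4 h than at 0 h and none was lower, against 10.2% and 7.03% of all genes. The median log2 fold of the list was 0.03. The gene called was the START-domain lipid carrier Stard5, at 3.64, 10.7 and 11.4 FPKM in time order. The acyl-CoA binding protein Dbi, which binds Tspo, was at 342, 337 and 341 FPKM, the porin Vdac1 at 157, 133 and 163, and the porin Vdac2 at 94.2, 91.6 and 104. The regulatory subunit Prkar1a of protein kinase A was at 127, 202 and 122 FPKM, and the prohibitin Phb2 at 142, 148 and 160. Stard3, a carrier of late endosomes, was at 20.4, 23.6 and 16.8 FPKM, and Lonp1, the matrix protease that degrades imported Star, at 66.8, 73.2 and 76.4. With libraries rescaled to the mean sum the median was -0.25, against -0.29 over all genes. Vdac3 (38.4, 20.2 and 33.8 FPKM as deposited) was then called lower, as were 13.1% of all genes.

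Cyp11a1, the cytochrome P450 that cleaves the cholesterol side chain, was already abundant before hCG. It was at 557 FPKM (542 to 573) at 0 h, 1713 (1685 to 1741) at 4 h and 930 (909 to 950) at 12 h. The ranges lay apart in all pairs, and only 4 h over 0 h was called (fold 3.07, log2 fold 1.62). At 12 h the level was 54.3% of that at 4 h, and the log2 fold over 0 h was 0.74 (0.67 to 0.81). Its rank among protein-coding genes was 59, 13 and 23 in time order. The gene spans 57998024 to 58027031 on chromosome 9. Of its exonic bases 3.02% are shared with the noncoding gene Gm17322 on the same strand.

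Fdx1, the ferredoxin that carries electrons to Cyp11a1, differed more than the enzyme it serves. It was at 182 FPKM (171 to 194) at 0 h, 1890 (1841 to 1939) at 4 h and 485 (463 to 506) at 12 h. It was the highest of the 9 genes at 4 h, and its range there lay above that of Cyp11a1. The fold was 10.3 for 4 h over 0 h, and the log2 folds were -1.96 for 12 h over 4 h and 1.40 for 12 h over 0 h, all 3 past the threshold. Fdx1 had 2 isoforms. The shorter, NM_007996, held 95.0%, 88.3% and 91.1% of its FPKM at 0, 4 and 12 h. The longer, NM_001301728, was at 9.11 FPKM (7.39 to 10.8), 221 (212 to 230) and 43.0 (38.1 to 47.9), so its share was 4.99%, 11.7% and 8.88%. Both isoforms were highest at 4 h. Fdx1 lies on chromosome 9 at 51943023 to 51963602.

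Fdxr, the flavoprotein reductase that loads Fdx1 with electrons from NADPH (chromosome 11, 115268024 to 115277101), stayed within 2-fold. It was at 119 FPKM (112 to 127) at 0 h, 132 (124 to 139) at 4 h and 170 (162 to 179) at 12 h. The ranges of 0 h and 4 h overlapped and that of 12 h lay above both. The log2 fold of 4 h over 0 h was 0.14 as deposited and -0.17 with libraries rescaled to the mean sum, and that of 12 h over 0 h was 0.51 and 0.59. The ratio of Fdx1 to Fdxr was 1.53 (1.35 to 1.72) at 0 h, 14.4 (13.3 to 15.6) at 4 h and 2.85 (2.59 to 3.13) at 12 h. Such ratios within a library do not depend on how libraries are scaled.

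Among other genes served by this electron chain, Cyp27a1, the sterol 27-hydroxylase, was at 10.3, 9.31 and 8.87 FPKM in time order. Fdx2, a second ferredoxin that works in iron-sulfur cluster assembly, was at 36.2, 42.1 and 38.1 FPKM. Neither was called in any comparison. The vitamin D enzymes Cyp24a1 and Cyp27b1 stayed under 1 FPKM.

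Hsd3b1, which converts pregnenolone to progesterone, ran the other way. It was at 3609 FPKM (3526 to 3692) at 0 h, 1679 (1632 to 1725) at 4 h and 1402 (1363 to 1442) at 12 h. The ranges lay apart, with 0 h far above the later times. The log2 folds were -1.10 (-1.18 to -1.03) for 4 h over 0 h and -1.36 (-1.44 to -1.29) for 12 h over 0 h, both called lower. For 12 h over 4 h it was -0.26 as deposited but 0.13 with libraries rescaled to the mean sum. Its rank among protein-coding genes was 2 at 0 h, 14 at 4 h and 7 at 12 h, so it stayed among the most abundant coding genes. Isoform NM_001304800 held 98.4%, 97.5% and 95.7% of the FPKM, and NM_008293 was at 57.9, 42.5 and 60.1 FPKM.

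Mouse Hsd3b1 belongs to a cluster of similar genes on chromosome 3, where it lies at 98842356 to 98859794, and reads that fit several members can be split between them. Aligned transcripts were 82.2% identical between Hsd3b1 and Hsd3b6, 82.3% between Hsd3b1 and Hsd3b2 and 85.5% between Hsd3b1 and Hsd3b3. Of the 50-base stretches of NM_001304800, 5.58% occurred in another gene, and of its 100-base stretches none did. No source used here gives the read length. Hsd3b2 was at 0.424, 0.316 and 0.213 FPKM in time order, and Hsd3b6 at 0.423, 0.683 and 0.108. Hsd3b5 was at 0.214 FPKM at 0 h and listed at 0 later, Hsd3b3 reached 0.0578 FPKM at 12 h only, and Hsd3b4 was listed at 0 throughout. Every 50-base and 100-base stretch of Hsd3b4 also occurs in the gene Gm10681, so the 0 of Hsd3b4 is uncertain, also in the sum below. Hsd3b1 held 99.971%, 99.940% and 99.973% of the summed FPKM of the 7 cluster genes in the table, Gm10681 among them. The log2 folds of that sum were -1.10, -0.26 and -1.36, as for Hsd3b1 alone. The more distant relatives Hsd3b7, of bile acid synthesis, and Nsdhl, of cholesterol synthesis, were at 15.9, 11.8 and 14.8 and at 28.3, 26.7 and 29.0 FPKM, and neither was called. Hsd3b7 shares 97.5% of its 50-base stretches, chiefly with the gene Gm49388, so its level is uncertain.

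Por, the reductase that passes electrons from NADPH to the P450 enzymes of the endoplasmic reticulum (chromosome 5, 135670040 to 135735326), had a sharp peak. It was at 37.9 FPKM (34.5 to 41.2) at 0 h, 203 (195 to 211) at 4 h and 44.0 (40.4 to 47.6) at 12 h. The ranges of 0 h and 12 h overlapped and that of 4 h lay above both. The fold was 5.26 for 4 h over 0 h (log2 fold 2.39), and the log2 fold of 12 h over 0 h was 0.21 (-0.03 to 0.45). Of its gain at 4 h 3.72% was present at 12 h, against 4.43% for Star, 17.7% for Fdx1 and 32.2% for Cyp11a1. With libraries rescaled to the mean sum these shares were 6.99%, 5.90%, 24.7% and 52.0%.

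Of 13 partners of Por at the floor, 4 h over 0 h had 3 higher and 1 lower, with a median log2 fold of 0.19. Over all genes 10.2% were higher and 7.03% lower. A pair of the 3 higher partners make cholesterol. The demethylase Cyp51 was at 35.4, 195 and 59.7 FPKM in time order, and the squalene epoxidase Sqle at 44.4, 109 and 59.0. The heme oxygenase Hmox1 was at 25.5, 53.7 and 29.4 FPKM. Aromatase, Cyp19a1, which makes estradiol with electrons from Por, was the gene called lower, at 198, 30.0 and 105 FPKM. Cyb5a, the cytochrome b5 that can donate electrons beside Por, was at 1456, 868 and 1100 FPKM, and the progesterone-binding heme protein Pgrmc1 at 97.9, 141 and 100 FPKM, both within 2-fold. With libraries rescaled to the mean sum 1 was higher (Cyp51), 2 were lower (Cyp19a1 and Cyb5a), and the median was -0.11. Over all genes that scaling gave 7.60% higher, 13.1% lower and a median of -0.29.

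Srd5a1, the 5-alpha-reductase that reduces progesterone and testosterone (chromosome 13, 69573449 to 69611485), dipped at 4 h. It was at 8.40 FPKM (6.45 to 10.4) at 0 h, 3.51 (2.46 to 4.55) at 4 h and 8.24 (6.31 to 10.2) at 12 h. The ranges of 0 h and 12 h overlapped almost wholly and that of 4 h lay below both. The log2 fold was -1.06 for 4 h over 0 h and 1.04 for 12 h over 4 h, just past the threshold, with -1.71 to -0.42 and 0.40 to 1.69 from the bounds. The 4 h level rests on about 102 fragments. Of its exonic bases 16.4% are shared with the noncoding gene Gm17108 on the same strand.

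Of 16 measured genes of progesterone reduction and inactivation 9 reached the floor. At 4 h over 0 h 1 was higher and 2 were lower (median -0.31), against 10.2% and 7.03% of all genes (median -0.01). Akr1c18, the 20-alpha-hydroxysteroid dehydrogenase that inactivates progesterone, was at 5.41, 16.2 and 19.2 FPKM in time order. Akr1c14, a 3-alpha-hydroxysteroid dehydrogenase that acts after Srd5a1, was at 636, 138 and 280 FPKM. Both Srd5a1 and Akr1c14 were called higher at 12 h than at 4 h. Hsd17b10 was at 215, 116 and 185 FPKM and Tecr, a relative of the 5-alpha-reductases in fatty acid elongation, at 206, 199 and 194. With libraries rescaled to the mean sum Hsd17b10 was also called lower at 4 h, and the median was -0.61, against -0.29 over all genes. That scaling called 13.1% of all genes lower and 7.60% higher.

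Cyp11b1, the 11-beta-hydroxylase known from adrenal glucocorticoid synthesis, was listed at 0 at 0 h and was at 5.81 FPKM (4.34 to 7.27) at 4 h and 7.05 (5.40 to 8.69) at 12 h. The ranges of the later times overlapped. By the calling rule it counted as higher at both, but no fold is given, since low values in the file are not always reliable. Gapdh, a glycolytic enzyme that every cell uses, was listed at only 0.909, 1.02 and 0.894 FPKM in time order. The later values correspond to about 205 and 242 fragments on an annotated transcript of 3165 bases, and 3 fragments at 0 h would be 0.0760 FPKM. With Cyp11b1 set against those 3 fragments the median log2 folds of the 9 genes were again 1.62 and 0.51. Cyp11b1 lies above both medians either way, so they could not move and say nothing about its 0. Of its 50-base stretches 18.1% occurred in other genes, chiefly Cyp11b2 and Gml2. Both were listed at 0 in every library, and Gml2 covers 285 exonic bases of Cyp11b1 on the other strand. Of the other adrenal cortex markers, the steroid 21-hydroxylase Cyp21a1 was at no more than 0.243 FPKM and the ACTH receptor Mc2r was at 0.105, 0.0606 and 0.245 FPKM in time order. The nuclear receptor Nr0b1 was at 8.70, 4.98 and 7.46 FPKM. The accessory protein of Mc2r, Mrap, was at 31.6, 914 and 174 FPKM, and made up most of the marker sum of 40.6, 925 and 189 FPKM. Cyp11b1 lies on chromosome 15 at 74834892 to 74841643.

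**Figure D2:**
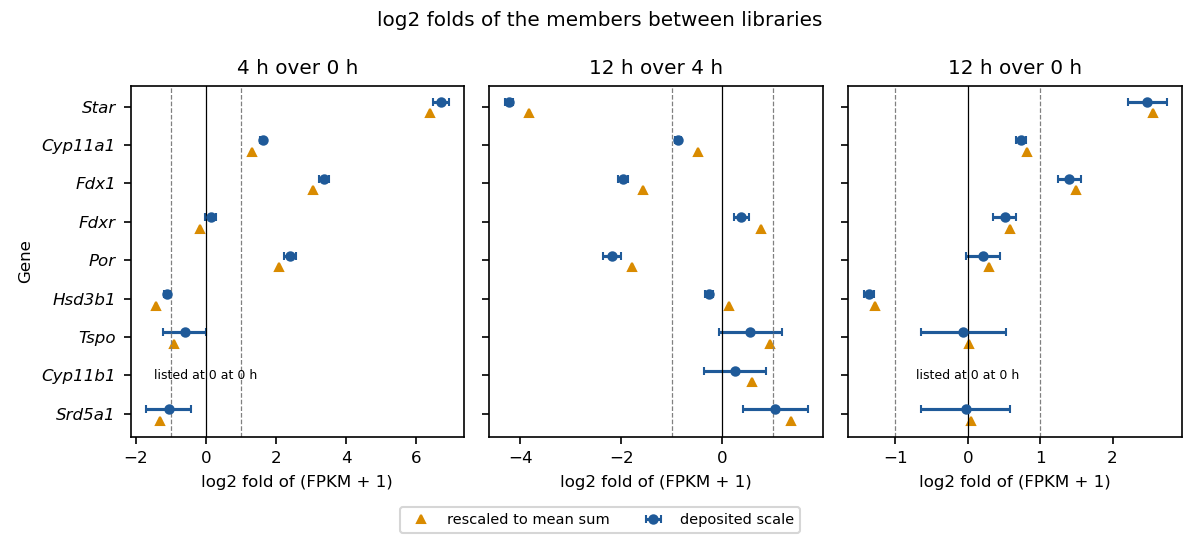
log2 folds of FPKM + 1 of each gene for 4 h over 0 h, 12 h over 4 h and 12 h over 0 h, with dashed lines at 2-fold. Circles are the deposited scale with the range from the deposited bounds and triangles are libraries rescaled to the mean sum; Star is at 6.69, -4.22 and 2.47, and the triangles of Fdxr at 4 h over 0 h, of Hsd3b1 at 12 h over 4 h and of Tspo and Srd5a1 at 12 h over 0 h lie across 0 from their circles.

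The order of the levels differed between the libraries. At 0 h it was Hsd3b1, Cyp11a1, Fdx1, Fdxr, Tspo, Por, Star, Srd5a1 and Cyp11b1, and each range lay above the next. At 4 h Fdx1 led, followed by Cyp11a1, Hsd3b1, Star, Por, Fdxr, Tspo, Cyp11b1 and Srd5a1. The ranges of Cyp11a1 and Hsd3b1 overlapped there, as did those of Cyp11b1 and Srd5a1. At 12 h the first 4 were in the order of 0 h, Star had passed Tspo and Por, the ranges of Tspo and Por overlapped, and so did those of Srd5a1 and Cyp11b1. Star, Cyp11a1, Fdx1 and Hsd3b1 all lay between 1583 and 1890 FPKM at 4 h. Cyp11a1 was at 38.9 times the FPKM of Star at 0 h, 1.08 times at 4 h and 11.1 times at 12 h. Hsd3b1 was at 6.47, 0.980 and 1.51 times the FPKM of Cyp11a1, and at 252, 1.06 and 16.7 times that of Star. Fdx1 was at 0.327, 1.10 and 0.521 times that of Cyp11a1.

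**Figure D3:**
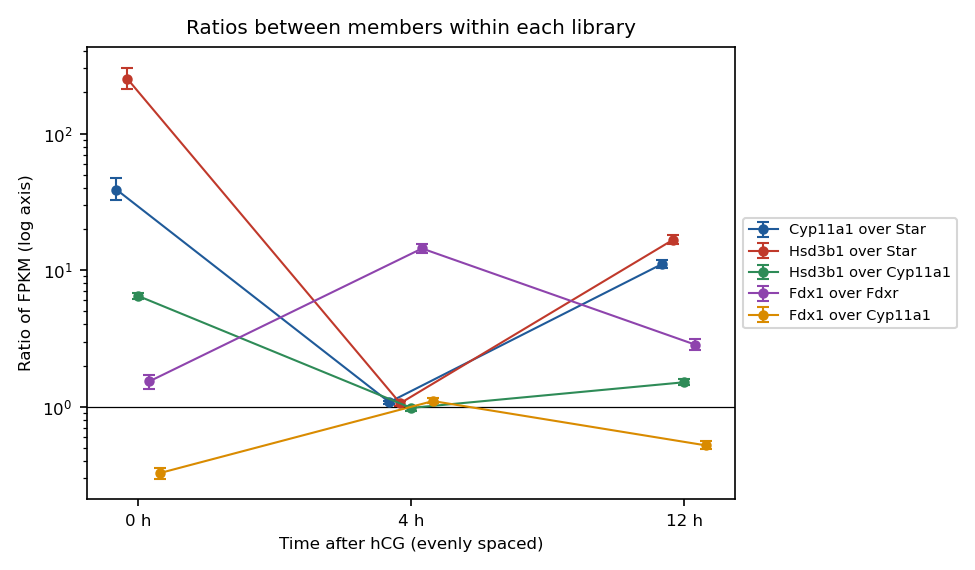
Ratios of FPKM between members within each library (log axis) at 0, 4 and 12 h, spaced evenly; bars are the widest range the deposited bounds allow. Ratios to Star were 38.9 (Cyp11a1) and 252 (Hsd3b1) at 0 h and close to 1 at 4 h, while Fdx1 over Fdxr was highest at 4 h, at 14.4.

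Cofactor supply was described from lists of heme synthesis, iron-sulfur assembly and mitochondrial NADPH, since P450 enzymes carry heme, Fdx1 carries an iron-sulfur cluster and Fdxr draws on NADPH. Of 11 heme genes 4 h over 0 h had 1 higher and 2 lower, with a median log2 fold of -0.63 against -0.01 over all genes. Alas1, the rate-limiting enzyme of heme synthesis, was at 25.2, 75.7 and 114 FPKM in time order, and unlike Fdx1 was highest at 12 h. Cpox and Fech, late enzymes of the pathway, were at 24.2, 11.3 and 14.5 and at 23.8, 10.7 and 17.3 FPKM. Of 12 iron-sulfur genes none was higher and 1, the cochaperone Hscb (16.7, 6.00 and 16.9 FPKM), was lower, with a median of -0.52; the chaperone Hspa9 was at 114, 163 and 136 FPKM. Of 6 NADPH genes at the floor none was higher and 1 was lower (median -0.54), the malic enzyme Me2, at 147, 62.7 and 106 FPKM. Idh2, the mitochondrial isocitrate dehydrogenase, was at 101, 67.4 and 104 FPKM. The transhydrogenase Nnt was listed at or under 3.80e-04 FPKM in every library. Low values in the file are not always reliable, as given above with Gapdh. With libraries rescaled to the mean sum 3, 5 and 2 genes of the 3 lists were lower, and the medians were -0.91, -0.81 and -0.83. Over all genes that scaling gave 13.1% lower and a median of -0.29, against 7.03% and -0.01 as deposited. Genes called higher were 7.60% of all with that scaling and 10.2% as deposited.

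**Figure D4:**
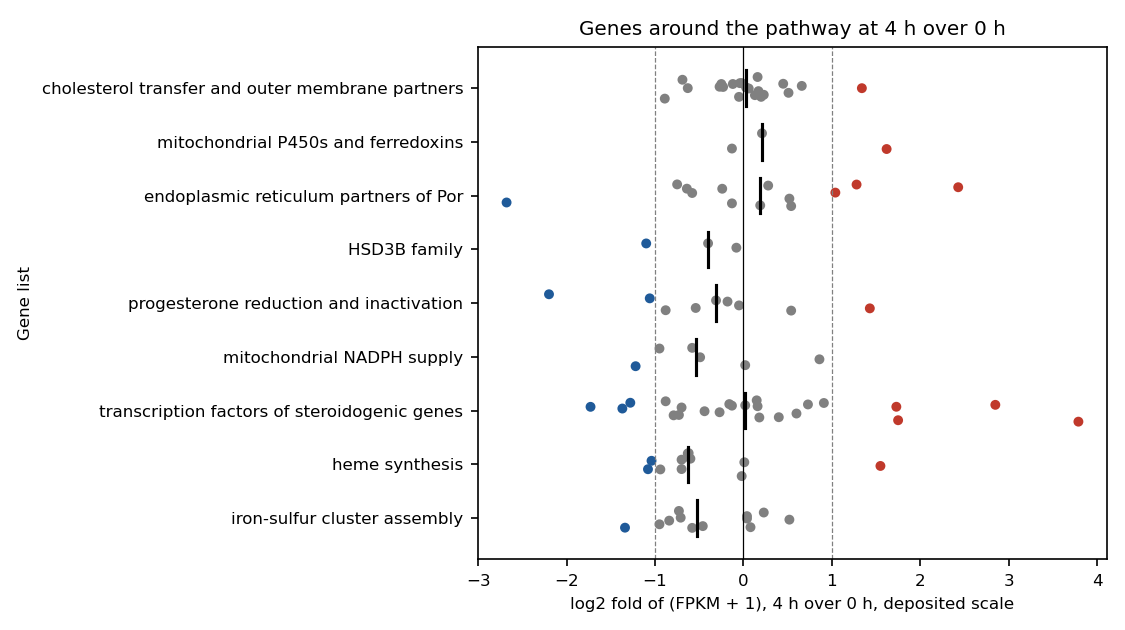
log2 folds of FPKM + 1 for 4 h over 0 h of the listed genes that reach 1 FPKM in either library, on the deposited scale, with 1 point per gene. Red is called higher, blue called lower and grey neither; black bars are list medians, dashed lines mark 2-fold, and Cyp11b1, listed at 0 at 0 h, is left out of the points and of its list's bar. Hsd3b1 is the blue point of its family, and most heme and iron-sulfur genes lie left of 0.

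Of 24 measured transcription factors known to act on steroidogenic genes 23 reached the floor. At 4 h over 0 h 4 were higher and 3 lower (median 0.02), against 10.2% and 7.03% of all genes (median -0.01). Crem, a cAMP-responsive factor with activator and repressor isoforms, was at 6.74, 106 and 12.3 FPKM in time order, and Cebpa and Cebpb at 42.9, 147 and 27.5 and at 50.4, 170 and 61.6. Nr4a1, an orphan nuclear receptor, was at 11.9, 91.7 and 39.4 FPKM and was the 1 factor still called higher at 12 h over 0 h. Foxl2 was at 149, 44.3 and 102 FPKM, Gata4 at 102, 38.7 and 83.9 and Foxo1 at 257, 105 and 203. The nuclear receptors Nr5a1 (SF-1) and Nr5a2 (LRH-1), which bind many steroidogenic promoters, were at 107, 64.0 and 68.7 and at 304, 164 and 196 FPKM. Both were within 2-fold as deposited, and both were called lower at 4 h with libraries rescaled to the mean sum. There 4 of the list were higher, 6 lower and the median was -0.27. All genes under that scaling had 7.60% higher, 13.1% lower and a median of -0.29. Fosl2, an AP-1 factor, was at 131, 109 and 62.8 FPKM and was called lower at 12 h over 0 h as deposited (log2 fold -1.05). With libraries rescaled to the mean sum it was not called there. As deposited 3.16% of all genes were higher and 2.55% lower at 12 h over 0 h.

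Promoter windows of GRCm38.p6 from RefSeq, with 250 bases before to 50 after a start, were found for 6 of the 9 genes (Cyp11a1, Fdx1, Fdxr, Por, Hsd3b1 and Srd5a1). They are shown for 3 genes that peaked together at 4 h and for Hsd3b1, which did not. Capitals mark exact matches on either strand. Nuclear receptors were searched as CAAGGTCA, the NR5A site, and as its core AGGTCA, which lies inside it. The cAMP response element (CRE) was searched as TGACGTCA and as its core TGACG, also contained in it. The AP-1 site was searched as TGANTCA. The C/EBP site was searched as TTGCNNAA. The GC box was searched as GGGCGG. The GATA site was searched as TGATAA. Of the 2 Cyp11a1 windows the one nearer to the GENCODE start of the deposited isoform is printed. The printed windows of Cyp11a1 and Por lie around starts inside the gene spans given above, not at their first base. Each printed window is given 5′ to 3′ on the strand of its gene.
Cyp11a1, chr9:58014702-58015001, plus strand: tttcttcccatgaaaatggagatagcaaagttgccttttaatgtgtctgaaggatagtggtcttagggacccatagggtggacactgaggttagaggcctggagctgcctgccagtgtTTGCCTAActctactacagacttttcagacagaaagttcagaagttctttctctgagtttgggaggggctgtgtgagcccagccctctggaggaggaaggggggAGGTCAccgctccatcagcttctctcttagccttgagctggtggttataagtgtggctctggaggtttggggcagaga
Fdx1, chr9:51963553-51963852, minus strand: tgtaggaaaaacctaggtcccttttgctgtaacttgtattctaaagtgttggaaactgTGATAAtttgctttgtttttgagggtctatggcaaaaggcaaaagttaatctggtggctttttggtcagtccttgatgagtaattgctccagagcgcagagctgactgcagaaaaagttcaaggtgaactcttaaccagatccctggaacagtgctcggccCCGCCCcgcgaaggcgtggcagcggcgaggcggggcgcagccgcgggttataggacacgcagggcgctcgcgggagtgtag
Por, chr5:135688895-135689194, plus strand: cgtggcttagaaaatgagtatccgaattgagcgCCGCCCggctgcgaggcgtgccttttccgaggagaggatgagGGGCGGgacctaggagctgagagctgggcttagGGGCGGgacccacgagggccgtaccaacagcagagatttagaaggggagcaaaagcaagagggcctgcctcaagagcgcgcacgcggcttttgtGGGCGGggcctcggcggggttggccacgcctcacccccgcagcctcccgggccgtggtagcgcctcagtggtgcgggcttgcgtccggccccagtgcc
Hsd3b1, chr3:98859745-98860044, minus strand: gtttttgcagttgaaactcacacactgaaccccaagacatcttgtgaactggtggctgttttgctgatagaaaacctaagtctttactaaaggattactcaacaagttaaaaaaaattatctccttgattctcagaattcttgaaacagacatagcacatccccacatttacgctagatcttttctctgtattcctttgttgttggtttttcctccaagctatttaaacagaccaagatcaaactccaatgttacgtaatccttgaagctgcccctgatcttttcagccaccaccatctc
The Cyp11a1 window held the nuclear receptor core, which 16.3% of all 32851 windows held, and a C/EBP match, which 10.8% held. The Fdx1 window held a GATA match (9.05% of windows) and a GC box (35.7%), the Por window held 4 GC boxes, and the Hsd3b1 window held none of the 8 motifs. The longer NR5A site (1.56% of windows), the full CRE (1.79%) and the AP-1 site (7.81%) matched in none of the printed windows, nor did the CRE core (20.8%). The Cyp11a1 window not printed, around the upstream start, held a CRE core and a GC box. Windows of Fdxr and Srd5a1, also not printed, held GC boxes, and that of Fdxr a GATA match as well. Neither gene peaked at 4 h, so these motifs were not particular to genes that did. Such matches describe letters only, and a factor can bind outside these windows or at other letters.

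Among 10046 protein-coding genes with at least 5 FPKM in a library, likeness was measured as the Euclidean distance between the pairs of log2 folds over 0 h, at 4 h and 12 h, over these 3 libraries. Nearest to Star were F3, tissue factor, at a distance of 0.16, with 5.61, 633 and 38.7 FPKM in time order, and Cxcr4, a chemokine receptor, at 0.32, with 2.37, 314 and 21.7 FPKM. Next came Snap25, a vesicle fusion protein, at 1.22, listed at 0 at 0 h with 146 and 1.56 FPKM later. The nearest to Fdx1 were Sfrp2 (0.09), Sik1 (0.14) and Junb (0.14), and to Cyp11a1 Socs3 (0.03), Fkbp1a (0.03) and Il17ra (0.04). The nearest to Por were Inpp1 (0.03), Lrrk2 (0.08) and Ppp1r13b (0.09), and to Hsd3b1 Id1 (0.07), Tmem45a (0.08) and Ahr (0.13). The neighbours of Star lay farther off than those of the other 4 genes compared.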

How the data were processed

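The authors deposited FPKM values of 34535 RefSeq isoforms in 3 libraries, each value with its bounds, per the file headers. CASAVA 1.8, TopHat2 2.1.1, Cufflinks 2.2.1 and mm10 come from the submitters' processing notes, which give neither role nor order; strandedness and read length are not given in the sources used here. The upper bound lies 2 deposited standard deviations above the value, in all estimates not marked as failed; 12 estimates were so marked, none of them of a member.

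Accessions were matched to GRCm38.p6 symbols (34169 isoforms), then GENCODE M21 (193), and 173 were left out. Isoforms were summed per gene and bounds combined in quadrature, as if isoform estimates were independent; 7 of the 9 genes had 1 isoform. log2 folds used a pseudocount of 1 FPKM. Depth was read from values below 10 fragments of single-isoform genes, 70.9%, 70.0% and 71.8% of which lay within 0.1 of a whole number at 0, 4 and 12 h (20.0% by chance), so it is an estimate, and member levels in FPKM carry counting error as in their bounds. Shared stretches were exact matches to GENCODE M21 transcripts. Genes named are the 9 members, the HSD3B family, up to 4 called genes per list with the largest fold and listed genes of at least 100 FPKM, the 3 nearest in pattern for 5 members, and the 2 markers of highest mean FPKM per cell type; Stard3, Lonp1, Cyp27a1, Fdx2, Cyp24a1, Cyp27b1, Nnt, Vdac3, Fosl2, Gapdh, Fshr, Hsd17b1, Cyp21a1, Mc2r and overlapping genes were picked as examples with their values in view. The members, lists and rules were chosen with earlier results of these data known. Calls were tried on simulated counts with known folds and counting error only, so spread between mice was not covered. Alternatives were pseudocounts, floors, 3 scalings, the main isoform, nearest bounds and thresholds. Python 3.11.15, pandas 2.3.3, numpy 2.4.6, matplotlib 3.10.9 and Biopython 1.88 were used.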

Additional observations from a re-analysis of the deposited data

How the results depend on the processing

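No paired analysis was possible because each time has 1 library, and for the same reason no replicate could be left out. Of 189 recomputed member folds 157 lay within the range of the deposited bounds and 32 outside. Part of that count was fixed in advance, since folds from the nearest bounds cannot leave that range. For the 7 genes with 1 isoform the main isoform is also the sum. None of the called folds turned its direction. Pseudocounts and nearest bounds cannot turn a fold, and the scalings shifted member folds by less than the threshold, so a turn was hardly possible. Members lower at 4 h over 0 h numbered 2 as reported and 1 with a pseudocount of 5 FPKM or from the nearest deposited bounds, where Srd5a1 fell short of the threshold. Members higher at 12 h over 4 h, Srd5a1 alone, numbered 0 under the same settings. At a 4-fold threshold the members lower at 4 h over 0 h, higher at 12 h over 4 h and lower at 12 h over 0 h each numbered 0. All other counts of members stayed within 1.5 times.

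Over all genes the share of higher among called genes was 59.3% at 4 h over 0 h, 38.0% at 12 h over 4 h and 55.3% at 12 h over 0 h as deposited, against 36.7%, 70.7% and 62.8% with libraries rescaled to the mean sum and 42.5%, 62.0% and 59.9% with protein-coding sums. Median-of-ratios scaling gave 58.4%, 41.4% and 57.1%. The log2 fold of Star at 4 h over 0 h was 6.36 with a pseudocount of 5 FPKM and 6.78 with 0.1 FPKM, the lowest and highest of its settings. The levels of Srd5a1 and Cyp11b1 rest on 102 to 273 fragments where above 0, and their bounds are wide relative to their size.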
